A study of Homo sapiens with 8 samples.

Results

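FCRLA (Fc receptor-like A) is a B-cell gene on human chromosome 1, and it was followed here across a time course in which a leukaemia fusion gene was knocked down. It was selected on its own measured values, as the B-cell gene with the largest difference between siMLL/AF4 and siCtrl arrays repeated on every day, so that difference is described and carries no test. A single probe (ILMN_1691071) was annotated to FCRLA in both deposited tables and none to its older symbols, which makes it 1 gene of 18205 with a probe and 1 of 9096 that passed the level filter in the knock-down comparison.

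The cells were SEM, an established leukaemia line of B-cell precursor type (ALL) in which the genes now called KMT2A and AFF1 are fused as MLL/AF4. They were electroporated up to 3 times at intervals of 2 days with siRNA against MLL/AF4 (siMLL/AF4) or with a control siRNA (siCtrl), and were harvested on days 2, 4 and 6. Mock-electroporated cells (MOCK, called a pulse control in the labels) were harvested on days 2 and 4. Each treatment and day had 1 Illumina bead array, 8 in all, and the 2 arrays of day 6 were of a newer array version than the other 6. All arrays come from this 1 line, and nothing in the labels says that the days were separate cultures. The p-values below for differences between treatments therefore measure the spread between days of what may be 1 time course. Those for day 4 minus day 2 measure instead how far that change differed between the 3 treatments.

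FCRLA encodes an intracellular member of the Fc receptor-like family. Unlike its relatives on the cell surface, the protein has no membrane anchor, stays in the endoplasmic reticulum of B cells and binds immunoglobulins there. Its RNA is known from B-lineage cells and is most abundant in germinal centre B cells. FCRLB, the gene next to it, encodes a similar intracellular protein, whereas FCRL1 to FCRL6 encode membrane receptors with signalling tails.

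FCRLA lies on the plus strand at chr1:161707229-161714352 (GRCh38.p14, RefSeq), and FCRLB starts 7.19 kb beyond its end, at chr1:161721544-161728143 on the same strand. The 250 bases before the start of each gene are shown because FCRLA and its neighbour were both higher on the siMLL/AF4 arrays; they lie at chr1:161706979-161707228 and chr1:161721294-161721543, are written 5′ to 3′ on the plus strand and come from RefSeq. Capitals mark, in FCRLA, a match to the interferon response repeat (GAAA, any 2 bases, GAAA) and one to the ETS core GAGGAA (on the minus strand), and in FCRLB a match to the octamer ATGCAAAT (on the minus strand).
FCRLA: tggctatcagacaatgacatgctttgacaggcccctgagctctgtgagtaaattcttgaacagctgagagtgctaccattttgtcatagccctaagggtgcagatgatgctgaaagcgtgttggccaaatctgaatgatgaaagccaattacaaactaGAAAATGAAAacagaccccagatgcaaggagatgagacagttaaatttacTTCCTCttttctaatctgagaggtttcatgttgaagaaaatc
FCRLB: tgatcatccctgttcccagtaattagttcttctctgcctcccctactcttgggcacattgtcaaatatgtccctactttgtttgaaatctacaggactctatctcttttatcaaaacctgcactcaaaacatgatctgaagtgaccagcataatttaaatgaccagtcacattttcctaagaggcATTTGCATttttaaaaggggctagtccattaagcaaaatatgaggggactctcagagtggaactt
Both windows were poor in CpG. The FCRLA window held 1 CpG and 41.2% G or C, and the FCRLB window 0 CpG and 39.6%, against medians of 11 CpG and 58% over 35116 RefSeq windows of the same length. As few CpG as in FCRLA were found in 14.7% of all windows, and as few as in FCRLB in 6.06%.

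Of 5 short motifs searched on both strands, counting positions back from the gene start, the interferon response repeat matched FCRLA at -92 to -83 and is present in 3.02% of all windows. The ETS core matched FCRLA at -42 to -37 and is present in 23.6%. The octamer, the classical element of immunoglobulin promoters, matched FCRLB at -65 to -58 and is present in 1.63%. The E-box CANNTG, present in 61.8% of windows, matched FCRLA 3 times and FCRLB once, where it overlaps the octamer at -66 to -61. The EBF1 core CCCNNGGG, present in 17.1%, matched neither window. These are matches of letters and do not show that a factor binds there.

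The deposited values are logarithms whose base is not given. They were read as natural logarithms, because the brightest probe then reaches a linear intensity of 38664, a usual size for a bead-array scanner, against 1512 if they were log2. All levels below were converted to log2 on that reading, and if the values were already log2, every level and difference would be 0.693 times as large. Arrays had nearly the same median (range 0.0031 on the log2 scale), and between 28.5% and 28.8% of the 39421 probes on each array were marked Null, without a value.

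FCRLA read 8.19, 9.65 and 10.40 (log2 level) on the siMLL/AF4 arrays of days 2, 4 and 6. It read 4.84, 6.12 and 5.61 on the siCtrl arrays of the same days, and 5.43 and 6.23 on the MOCK arrays of days 2 and 4. Every siMLL/AF4 array was therefore above every control array, and the lowest siMLL/AF4 level exceeded the highest control level by 1.96, more than the 1.39 that separated the highest and lowest of the 5 controls. As linear intensities the siMLL/AF4 arrays read 292, 802 and 1353, the siCtrl arrays 28.7, 69.6 and 48.9, and the MOCK arrays 43.1 and 75.3.

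**Figure D1:**
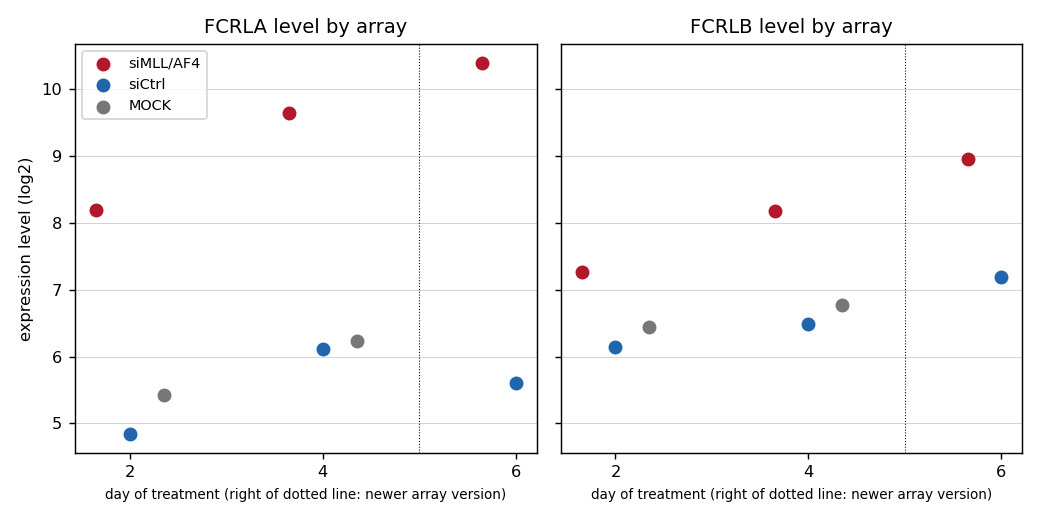
Log2 level of FCRLA (left) and FCRLB (right) on each array against the day of treatment, 1 point per array; points of 1 day are set side by side and the day 6 arrays, right of the dotted line, are of a newer version. FCRLA was between 8.19 and 10.40 on siMLL/AF4 arrays and between 4.84 and 6.23 on siCtrl and MOCK arrays, and FCRLB was between 7.26 and 8.96 on siMLL/AF4 arrays and between 6.15 and 7.19 on siCtrl and MOCK arrays.

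FCRLA averaged 9.41 ± 1.12 on siMLL/AF4 arrays, 5.52 ± 0.64 on siCtrl arrays (log2, SD, n = 3 days each) and 5.83 ± 0.57 on MOCK arrays (n = 2). Taken within each day, siMLL/AF4 minus siCtrl was 3.35 on day 2, 3.53 on day 4 and 4.79 on day 6, which correspond to 10.2-fold, 11.5-fold and 27.7-fold. The mean difference was 3.89 ± 0.79 (log2, SD over 3 days), or 14.8-fold. With day 6 left out it was 3.44. Against MOCK the difference was smaller, 2.76 on day 2 and 3.41 on day 4, with a mean of 3.09 ± 0.46 (SD, n = 2 days) or 8.49-fold.

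These differences chose the gene, and the following ranks only place it. Among 9096 genes FCRLA had the largest of the smallest differences over the 3 days and the second-largest mean difference; by single days it was 38th on day 2, 23rd on day 4 and 7th on day 6. Of all genes, 58 (0.638%) were at least 2-fold higher on all 3 days. The lowest siMLL/AF4 array exceeded all 5 control arrays for 186 of 8870 genes (2.1%) with values on all 8 arrays.

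The 5 genes just behind FCRLA in the order by smallest difference have varied roles. IFI44, an interferon-induced gene, was higher on siMLL/AF4 arrays than on siCtrl arrays by 3.25, 2.86 and 3.90 on days 2, 4 and 6. GABARAPL1, which takes part in autophagosome formation, was higher by 3.17, 2.77 and 4.10. ANXA1 (annexin A1) was higher by 2.49, 2.86 and 2.95. DYNC1I1, a dynein intermediate chain, was higher by 3.37, 3.43 and 2.25, and NLGN4X, a neuroligin of synapses, by 2.20, 2.70 and 2.66.

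With the control siRNA FCRLA read below MOCK on both days. siCtrl minus MOCK was -0.59 on day 2 and -0.11 on day 4. In a limma fit of all 8 arrays with the day as a block the difference was -0.58 ± 0.40 (log2, SE), with an adjusted p of 0.447. That fit also takes in the siMLL/AF4 arrays and day 6, which move its estimate. On the 4 siCtrl and MOCK arrays of days 2 and 4 alone the difference was -0.35. The siCtrl and siMLL/AF4 arrays in the fit also took part in choosing the gene. No gene of 8886 passed an adjusted p of 0.05 in this comparison by limma, in the main setting or in any alternative that was run, and 1770 (19.9%) had an unadjusted p under 0.05.

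FCRLA was higher on day 4 than on day 2 under each treatment. Day 4 minus day 2 was 1.46 on siMLL/AF4 arrays, 1.28 on siCtrl arrays and 0.80 on MOCK arrays, a mean of 1.18 ± 0.34 (log2, SD over 3 treatments) or 2.27-fold. FCRLA shared a higher day 4 level in all 3 treatments with 2088 of 10230 genes (20.4%). The limma fit with treatment as a block gave an unadjusted p of 0.00497, the 68th smallest, and an adjusted p of 0.461. Its siMLL/AF4 and siCtrl arrays also took part in choosing the gene. By limma 0 of 10230 genes passed the adjusted threshold, 1069 (10.4%) had an unadjusted p under 0.05, and 95 genes passed with a trended and robust variance, under which FCRLA had an adjusted p of 0.0700. Whether the change over time differed between treatments was not tested, and day 6 was left out because its arrays are of another version.

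FCRLB followed the same pattern on a smaller scale. Its probe (ILMN_1782015) read 7.26, 8.18 and 8.96 on siMLL/AF4 arrays on days 2, 4 and 6, and 6.15, 6.49 and 7.19 on siCtrl arrays. On MOCK arrays it read 6.44 on day 2 and 6.77 on day 4. All siMLL/AF4 arrays were above all controls, but only just: the lowest, of day 2, exceeded the highest control, the siCtrl array of day 6 on the newer version, by 0.071.

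Within days FCRLB was higher on siMLL/AF4 arrays than on siCtrl arrays by 1.11, 1.69 and 1.77, or 2.16-fold, 3.23-fold and 3.41-fold. The mean was 1.53 ± 0.36 (log2, SD over 3 days; SE 0.26 from the fit), or 2.88-fold, which limma with the day as a block gave an unadjusted p of 0.00193 and an adjusted p of 0.458. Over the alternatives run its adjusted p lay between 0.0582 and 1.00. By the same limma fit 0 of 9096 genes passed an adjusted p of 0.05 and 672 (7.39%) had an unadjusted p under 0.05. Other settings of limma passed 3, 19 and 32 genes (an offset of 16, a stricter level filter, a trended and robust variance).

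Against MOCK, FCRLB was higher on siMLL/AF4 arrays by 0.82 on day 2 and 1.42 on day 4. It was lower on siCtrl than on MOCK arrays by 0.30 and 0.27 on those days (fit -0.35 ± 0.26 SE, adjusted p 0.489 by limma). Day 4 minus day 2 was 0.92 with siMLL/AF4, 0.34 with siCtrl and 0.32 with MOCK, with an adjusted p of 0.461 by limma.

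The membrane receptors of the family, FCRL1 to FCRL6, had little signal. Their 9 probes had values on 3 to 7 arrays and none on all 8, so none was tested. The highest log2 level among them was 4.63 on the older arrays and 6.54 on the newer ones. That last value belonged to an FCRL5 probe on the siMLL/AF4 array of day 6, which read 6.10 on the siCtrl array of the same day. FCRL1 was below its siCtrl level on the 1 day with values for both, at -0.60 with siMLL/AF4 and 2.55 with siCtrl on day 2.

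FCRLA and FCRLB lie between a cluster of Fc gamma receptor genes, which encode surface receptors for IgG, and a stretch of genes with unrelated roles. Of the 5 tested genes on each side of FCRLA, 3 were higher on all 3 days (SDHC, FCGR3A and FCRLB), where 14.6% of all genes were, and 1 was lower on all 3 days (FCGR2B), where 14.6% were. The tested probes of FCGR3A and FCGR2B had no value on either MOCK array and were dim. On days 2 and 4 FCGR3A read 2.71 and 2.44 with siCtrl, near the level filter's cut-off of 2.17. FCGR2B read 2.75 and 2.54 with siMLL/AF4. On day 6 they differed from siCtrl by only 0.050 and -0.030. FCRLB was the only one of the 10 that was at least 2-fold higher on all 3 days. The mean differences of the other 9 lay between -0.72 and 1.11, and none of them had an adjusted p under 0.05.

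FCGR2B, the inhibitory IgG receptor of B cells, ends 28.6 kb before FCRLA and differed by -0.25, -1.86 and -0.030 on days 2, 4 and 6 (siMLL/AF4 minus siCtrl). A second FCGR2B probe was lower with siMLL/AF4 on days 2 and 4 and had no value on the siMLL/AF4 array of day 6. Beyond FCRLB, the phosphatase gene DUSP12 had a mean difference of 0.25 and ATF6, a sensor of unfolded proteins in the endoplasmic reticulum, one of 0.17. SDHC, a subunit of mitochondrial succinate dehydrogenase, was higher than with siCtrl by 0.66, 0.51 and 0.48 (adjusted p 0.675 by limma). On days 2 and 4 it read 9.67 and 9.70 with siMLL/AF4, below the 10.21 and 10.30 with MOCK.

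**Figure D2:**
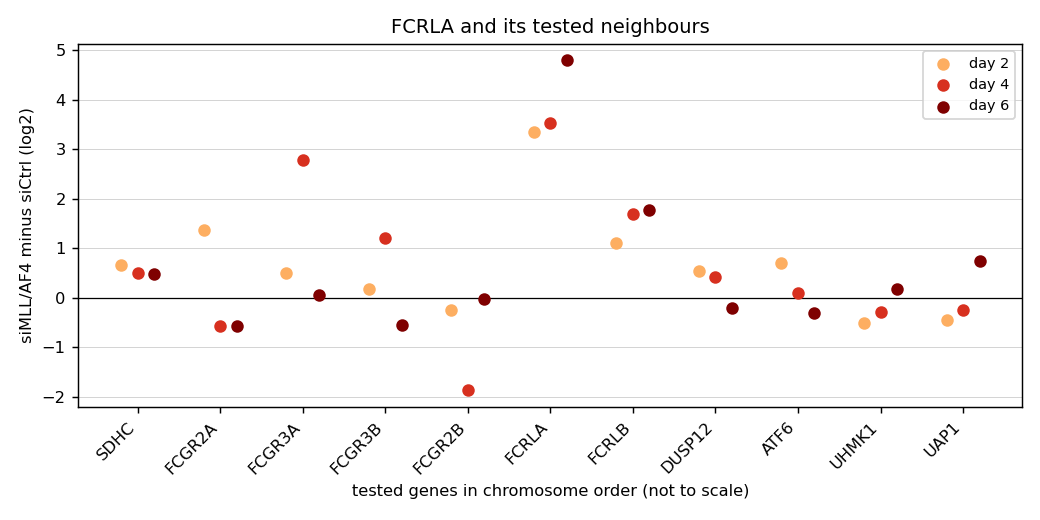
Difference siMLL/AF4 minus siCtrl (log2) on days 2, 4 and 6 for FCRLA and the 5 tested genes on each side, in chromosome order and not to scale, 1 point per day. FCRLA stood at 3.35 to 4.79 and FCRLB at 1.11 to 1.77. FCGR3A reached 2.79 on day 4, over a dim siCtrl level of 2.44, but 0.050 on day 6.

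The B-cell receptor and immunoglobulin chains, the class of protein that FCRLA binds, had 14 genes on the list, of which 6 had a probe and 4 were tested. Of these, 3 were higher and 1 lower on average, with a median difference of 0.57, against a median of -0.0054 and 49.2% higher over all 9096 genes, and 0 passed the adjusted threshold. CD79A, a signalling chain of the B-cell receptor, was higher with siMLL/AF4 than with siCtrl by 0.95, 0.85 and 0.42 on its brightest probe (adjusted p 0.614 by limma), while a second probe was lower on day 2. On days 2 and 4 the brightest probe read 11.50 and 11.90 with siMLL/AF4 and 11.71 and 11.42 with MOCK. The second probe read below MOCK on both days. IGLL1, the surrogate light chain of the pre-B-cell receptor, differed from siCtrl by -0.29, 2.52 and 1.27 (adjusted p 0.738 by limma), and its other 2 probes were likewise higher on days 4 and 6. On days 2 and 4 its brightest probe read 9.02 and 9.89 with siMLL/AF4 and 10.21 and 8.56 with MOCK. CD79B had a mean difference of 0.40 and VPREB1, the partner of IGLL1, one of -0.25.

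VPREB3, which holds immunoglobulin chains in the endoplasmic reticulum, was not tested because its probe had no value on the siCtrl array of day 6. It read 5.33, 6.38 and 6.20 on siMLL/AF4 arrays on days 2, 4 and 6. It read 3.37 and 3.76 on siCtrl arrays and 5.11 and 5.20 on MOCK arrays on days 2 and 4. The siMLL/AF4 arrays were thus above the siCtrl arrays by 1.96 and 2.62, and the MOCK arrays lay nearer to siMLL/AF4 than to siCtrl. JCHAIN, the joining chain of IgM and IgA, had values on 3 arrays.

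The classical Fc receptors had 15 genes on the list, 14 with a probe and 8 tested. Of these 6 were higher and 2 lower on average, where 49.2% of all genes were higher. The median difference was 0.19, and 0 passed the adjusted threshold. FCAR, the IgA receptor of myeloid cells, was higher with siMLL/AF4 by 1.05, 0.49 and 1.19 (mean 0.91, adjusted p 0.586 by limma). FCMR, the IgM receptor, was higher by 0.84 and 1.03 on days 2 and 4 and differed by -1.30 on day 6. FCGR2A differed by 1.37, -0.57 and -0.57 (its second probe by 0.78, -0.30 and 1.20), FCGR3B by 0.28 on average, the neonatal receptor FCGRT by -0.67 and the cytosolic antibody receptor TRIM21 by 0.19.

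FCRLA protein resides where immunoglobulins are folded. Of 18 genes on the list of the folding machinery 15 were tested, of which 4 were higher and 11 lower on average with siMLL/AF4, with a median difference of -0.25, and 0 passed the adjusted threshold (over all genes 49.2% were higher on average). ERP44, a thiol retention factor for immunoglobulin assembly, had a mean difference of -1.41 and HYOU1, a chaperone, one of -0.89, both with an unadjusted p under 0.05, as 3.49% of all genes had in that direction, and neither passed after adjustment (limma, adjusted p 0.496 and 0.586). DNAJC3 averaged -0.94 and HSPA5, the chaperone BiP that binds heavy chains, -0.87, but DNAJC3 was 1.17 higher on day 2 and most of the HSPA5 difference came from day 6 (-2.24).

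The 6 lists of B-lineage genes (receptor signalling, germinal centre, mature surface, pro-B and pre-B, plasma cell, transcription factors) held 92 distinct genes, of which 50 were tested. On average 21 of the 50 were higher with siMLL/AF4, where 49.2% of all genes were, and the median difference was -0.15. Both counts and the median include CD40, which passed the level filter of the older arrays only through its siMLL/AF4 levels. On all 3 days 11 were higher and 11 lower, where 14.6% of all genes were in each direction. CD34 and TLR10 (2 of the 50) were at least 2-fold higher on all 3 days, where 0.638% of all genes were. At an unadjusted p under 0.05, which 3.9% of all genes had upward and 3.49% downward, CD34, IL7R and TLR10 were higher and IKZF1, PRKCB and SPIB lower, and 0 of the 50 passed after adjustment (limma).

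TLR10, a Toll-like receptor of B cells, was higher with siMLL/AF4 by 2.30, 1.98 and 1.44 (mean 1.91, adjusted p 0.392 by limma). CD34, a surface protein of progenitors, was higher than with siCtrl by 3.16, 1.41 and 1.49 (mean 2.02, adjusted p 0.503 by limma). Its levels on days 2 and 4 were 4.63 and 4.47 with siMLL/AF4, 1.47 and 3.05 with siCtrl and 3.96 and 3.80 with MOCK, so it was nearer to MOCK than to siCtrl, and the siCtrl level of day 2 was below the filter's cut-off of 2.17. CD40, the receptor for T-cell help, read 5.26, 4.09 and 5.78 with siMLL/AF4 and -0.30, 2.18 and 5.78 with siCtrl on days 2, 4 and 6, and had no value on either MOCK array. It passed the level filter of the older arrays only through its siMLL/AF4 levels, so its mean difference of 2.49 is no measure of a change. In the same lists CD52 averaged 0.65, TNFRSF13C, the BAFF receptor, -0.58, IL7R, the receptor for interleukin 7, 0.82 and the kinase receptor FLT3 -0.59. For CD52 and TNFRSF13C the sign was not the same on all 3 days.

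Genes that, like FCRLA, mark germinal centre B cells were split, with 4 of 6 tested higher, 2 lower and a median difference of 0.12. For this list and those that follow, 49.2% of all genes were higher on average. BCL6, the repressor that directs the germinal centre programme, averaged 0.37 and ELL3 0.60, whereas LMO2 averaged -0.51 and EZH2 -0.36. Of the plasma cell list 2 of 6 were higher, with MZB1 at 0.42, CREB3L2 at -0.38, XBP1 at -0.37 and SDC1 at -0.29. Of the receptor signalling list 6 of 15 were higher, and its kinases PRKCB and SYK averaged -0.74 and -0.52 and the exchange factor VAV2 -0.65. The sign of the difference was not the same on all 3 days for EZH2, XBP1, SDC1, SYK and VAV2.

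The B-lineage transcription factors had 1 of 11 tested genes higher on average, where 49.2% of all genes were, with a median difference of -0.23. On all 3 days 4 were lower and 1 higher, where 14.6% of all genes were in each direction. IKZF1 (Ikaros) differed from siCtrl by -0.73, -0.68 and -0.68 on days 2, 4 and 6, SPIB, an ETS factor, averaged -0.67 and BCL11A -0.50. On days 2 and 4 IKZF1 read 9.92 and 8.80 with siMLL/AF4 and 9.97 and 9.11 with MOCK. SPIB read 6.68 and 6.48 against 8.46 and 8.06 with MOCK, and BCL11A 11.54 and 11.85 against 12.19 and 12.20. The gene that was higher on average was POU2AF1, the coactivator of the octamer factors, with 0.34.

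**Figure D3:**
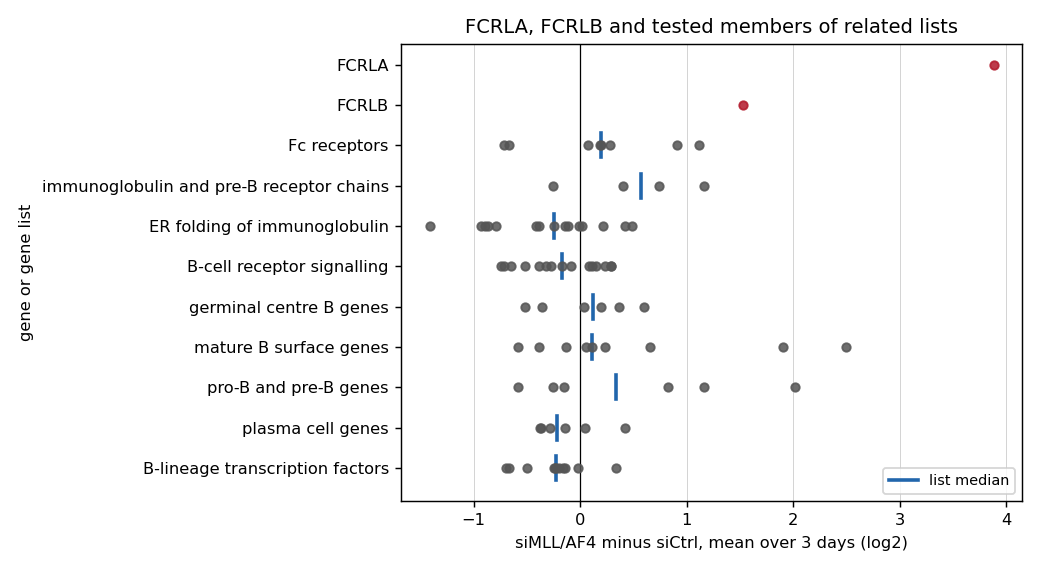
Mean difference siMLL/AF4 minus siCtrl over 3 days (log2) for FCRLA, FCRLB and each tested gene of the related lists, 1 point per gene, with the median of each list as a blue bar. FCRLA stands at 3.89, which its selection as the largest repeated difference among B-cell genes largely fixed, and FCRLB at 1.53. CD40 at 2.49 and CD34 at 2.02 rest on siCtrl levels of day 2 below the filter's cut-off, and the list medians lay between -0.25 and 0.57.

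The arrays were also checked for the line's identity, for the targeted genes and for other cells. EBF1 (10.91 to 11.99 over the 8 arrays), VPREB1 and CD79A were bright, whereas the PAX5 probe was without a value on both day 6 arrays, and DNTT, RAG1 and CD24 were dim or without a value on several arrays. The KMT2A probe read 7.17, 6.42 and 7.33 with siMLL/AF4, 7.66, 6.97 and 7.86 with siCtrl and 7.11 and 6.38 with MOCK, so it was lower than siCtrl on each day but not than MOCK; no probe reads the fusion alone. Both AFF1 probes read below siCtrl on every siMLL/AF4 array of the same day, but not always below MOCK: on days 2 and 4 one read 7.16 and 6.01 with siMLL/AF4 and 6.01 and 6.07 with MOCK, and the other 7.90 and 7.88 with siMLL/AF4 and 8.50 and 7.75 with MOCK. Summed linear intensities of 11 myeloid genes overlapped, at 2339 to 6868 with siMLL/AF4, 3503 to 6786 with siCtrl and 5278 to 6641 with MOCK, and of the 3 tested LYZ averaged 1.07, CEBPA -0.47 and CSF1R -0.75. Those of 12 T and NK cell genes ranged over 422 to 1499, 619 to 1599 and 962 to 1056 in the same order, those of 11 plasma cell genes over 9644 to 15807, 12881 to 14717 and 13692 to 14240, and those of 8 erythroid genes over 96.2 to 169, 59.4 to 168 and 66.9 to 137. Of the 2 tested T and NK cell genes, GZMA differed from siCtrl by -1.14, -1.26 and -2.11 on days 2, 4 and 6. NKG7 averaged -0.024. The part of such other cells in the FCRLA difference was not tested. In such bulk RNA more cells with FCRLA and more FCRLA RNA per cell cannot be told apart.

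The profile of FCRLA over the 8 arrays, centred on its mean within each array version, was set against those of 8869 genes. The 10 genes with the smallest root mean square distance (log2) were IFI44 (0.321), GABARAPL1 (0.508), ANXA1 (0.667), NLGN4X (0.691), IFIT1 (0.848), ENPP2 (0.853), NR4A2 (0.884), IFIT2 (0.898), CFAP70 (0.936) and GBP2 (0.941), against a median of 1.91 over all genes. IFI44, IFIT1, IFIT2 and GBP2 are known as interferon-induced genes, ENPP2 encodes autotaxin, which makes lysophosphatidic acid, NR4A2 is an orphan nuclear receptor and CFAP70 a protein of cilia. FCRLB came 30th by distance (1.15), since its swings were smaller, and 1st by Pearson correlation (r = 0.988 over 8 arrays, which share their 3 treatments), a description without a test.

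The 10 genes were chosen by likeness over all 8 arrays, which favours each of the following features. The counts therefore describe that choice, and the shares over all genes beside them are no test of it. All 10 were above the 5 control arrays on every siMLL/AF4 array, where 2.1% of 8870 genes were. Of the 10, 9 were at least 2-fold above MOCK on both days, and 4 were lower with siCtrl than with MOCK on both days. No share over all genes was counted for these features against MOCK. Of the 10, 6 were higher on day 4 than on day 2 in all 3 treatments, where 20.4% of 10230 genes were. IFI44, the most alike, read 8.75, 9.91 and 10.88 with siMLL/AF4 on days 2, 4 and 6, against 5.50, 7.05 and 6.97 with siCtrl and 5.54 and 6.65 with MOCK on days 2 and 4. GABARAPL1 read 7.97, 9.62 and 9.06 with siMLL/AF4, against 4.80, 6.85 and 4.95 with siCtrl and 6.12 and 7.57 with MOCK. Both shared the higher day 4 level under every treatment with FCRLA. Ranked by Pearson correlation, 3 of the 10 were again among the first 10, and over the 6 older arrays alone 6 were.

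**Figure D4:**
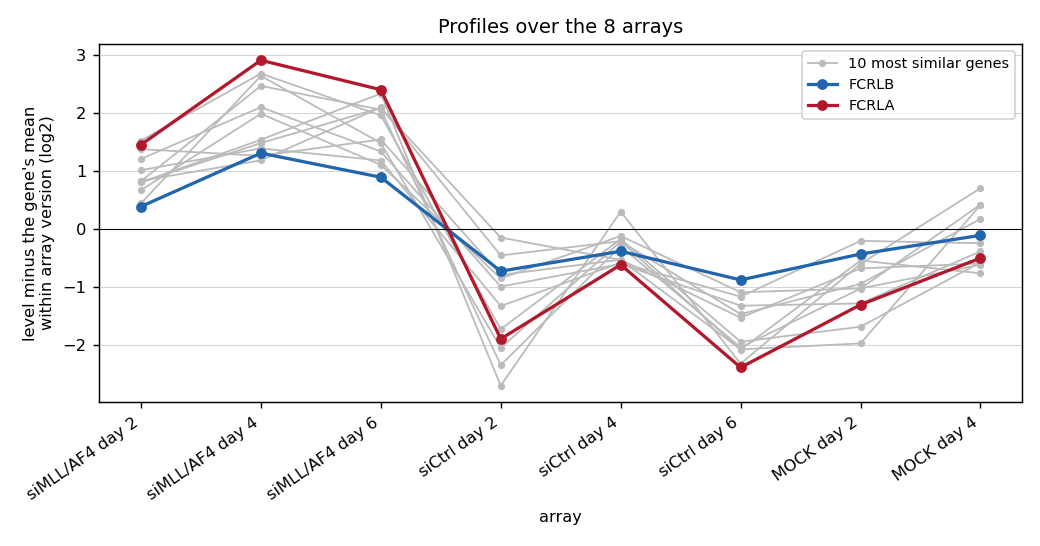
Log2 level minus the gene's mean within each array version, over the 8 arrays, for FCRLA (red), FCRLB (blue) and the 10 genes most like FCRLA (grey), 1 line per gene; lines join arrays only to make a gene easy to follow. On all siMLL/AF4 arrays the lines lie above 0. On this centred scale FCRLA is lowest, among siCtrl and MOCK arrays, on the siCtrl arrays of days 2 and 6. The newer version holds only 2 arrays, so centring sets them equally far above and below 0. Before centring, the siCtrl array of day 6 (5.61) was above the MOCK array of day 2 (5.43).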

How the data were processed

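Total RNA of SEM cells was hybridised to 8 Illumina arrays, 1 per treatment and day. Per the labels and the value tables, the authors deposited processed values on a natural log scale as far as the values show (the base is not given), 1 table per array version, each with 39421 probes. GenomeStudio is named in the submitters' processing notes; the background correction and normalization are not given in the sources used here. No per-array detection values were used, so nothing marks which dim levels are above background.

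Values were converted to log2. Probes were named from the platform annotation (27210 with 1 symbol, 8 with several, which were left out, and 12203 not listed), 27177 of them through Entrez ID; each gene was represented by its probe with the highest mean. Genes with values on all arrays of a comparison and a mean level, within each array version, at or above the median of all probes (Null set to the lowest value) were tested with limma 3.58.1 in R 4.3.3 (lmFit, eBayes, two-sided, Benjamini-Hochberg over all genes tested, threshold 0.05). The day was a block for siMLL/AF4 minus siCtrl (6 arrays) and siCtrl minus MOCK (8 arrays), and the treatment for day 4 minus day 2 (6 older arrays). The days are shared across treatments per the labels; nothing there says that a day was 1 batch. For siMLL/AF4 minus siCtrl that cut-off was 2.17 on the older and 3.51 on the newer arrays, below every FCRLA level. Other figures and sequence matches were made with Python 3.11.15.

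Named genes were FCRLA, its family, Fc receptors and immunoglobulin chains, the 5 tested genes on each side, up to 4 members of each other list by mean difference, the 5 genes after FCRLA by smallest difference, the 10 most like it, and KMT2A and AFF1. FCRLA and all lists were chosen with earlier results of these data known. Alternatives changed the normalization, log base, floor, offset, probe rule, filter, variance model and block, and left out days, treatments or arrays. The precision is limited by 1 array per treatment and day.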

Additional observations from a re-analysis of the deposited data

How the results depend on the processing

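FCRLA kept its direction in every comparison and alternative run, but some alternatives could not change its difference. It has 1 probe, all its levels lay above the floor, and another log base only rescales the values. For FCRLA the level filter and the variance model alter only the p-values. Over 9 alternatives siMLL/AF4 minus siCtrl lay between 2.70 and 4.16 (main 3.89), lowest where the values were read as log2, which also gave 2.14 against MOCK (main 3.09). Leaving out 1 day gave 3.44 to 4.16. Over 11 alternatives siCtrl minus MOCK lay between -0.58 and -0.31, and over 13 day 4 minus day 2 lay between 0.82 and 1.37, with adjusted p of 0.343 to 0.916 and 0.0700 to 0.818 by limma. Without the replicate block FCRLA had a siCtrl minus MOCK difference of -0.31 (adjusted p 0.916) and a day 4 minus day 2 difference of 1.18 (unadjusted p 0.350, adjusted p 0.818); FCRLB turned to 0.0053 for siCtrl minus MOCK, where day 6, present for siCtrl only, then enters the mean. Of 9 genes called above at an unadjusted p under 0.05 for siMLL/AF4 minus siCtrl, 4 kept it without the block (TLR10, ERP44, HYOU1 and FCRLB). The rest were CD34, IL7R, IKZF1, PRKCB and SPIB, and none of the 9 passed after adjustment either way (limma). Other named genes, such as CD79A, FCAR and LYZ, also had an unadjusted p under 0.05 with the block but were not among the 9. The share of all genes that kept such a p without the block was not counted, so 4 of 9 has no background.

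Genes past the adjusted threshold for siMLL/AF4 minus siCtrl numbered 0, but 3 with an offset of 16, 19 with the filter at the 70th percentile and 32 with a trended and robust variance; for day 4 minus day 2, 0 and 95 with that variance. The cause was not tested, and these counts rest on 1 array per treatment and day. The FCRLB results and the counts under other normalizations, log base, floor, offset, probe rule and left-out arrays were added after seeing the data.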
